A study of Mus musculus with 15 samples.

Results

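Innate receptor genes are those through which phagocytes and other cells recognise microbes, dead cells, antibodies and sugars on cell surfaces. The members described here were chosen by gene name: C-type lectins (Clec), Toll-like receptors (Tlr), Fc receptors for antibodies with their shared signalling chain Fcer1g, the CD300 family, Siglecs, SIRP and PILR receptors, and Cd14, Mrc1 and Msr1. There were 45 of them among 14237 listed genes, and all 45 passed the filter on low counts, with 14194 genes tested in all. The name rule matched 78 genes in the GENCODE M21 annotation, 75 of them protein coding, and the other 33 were not analysed here.

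RNA was sequenced from whole optic nerves of adult C57BL/6J mice. Crush AAV-CNTF nerves came from eyes given an intravitreal adeno-associated virus of serotype AAV2 carrying a secretable ciliary neurotrophic factor (CNTF), and were crushed 2 weeks later and taken 7 days after crush. Crush AAV-null nerves had the same crush and times with the control virus AAV-null. Sham nerves had AAV-null and were exposed without crush, at times that the labels do not give. Each of the 3 groups had 5 biological replicates, numbered 2 to 6, which were taken as separate animals, and all groups carried a virus, so no uninjected nerve was compared.

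Toll-like receptors bind microbial lipids at the cell surface or nucleic acids inside endosomes and signal through adaptors such as Myd88 and Ticam1. Many activating lectins, Fc receptors and CD300 receptors have no signalling tail of their own and use the adaptors Fcer1g or Tyrobp, whose phosphorylated motifs recruit the kinase Syk. Inhibitory receptors, such as Fcgr2b, Sirpa, Pilra, Cd300a and several Siglecs, carry motifs that recruit the phosphatases Ptpn6, Ptpn11 and Inpp5d. In the optic nerve and brain these receptors are known mainly from microglia, macrophages and other myeloid cells, with exceptions among them such as Clec14a of endothelium and the secreted proteins Clec3b and Clec11a.

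Library totals over the listed genes ran from 23775487 to 29558293 expected counts for crush AAV-CNTF, from 19918858 to 29138927 for crush AAV-null and from 19856688 to 26411929 for sham. Markers of the nerve's own glia were listed in full (9 of 9 oligodendrocyte and myelin genes and 9 of 9 astrocyte genes), and 0 of 6 photoreceptor genes were listed. All 13 microglia and macrophage markers rose after crush with AAV-null. Their summed level was 3480 to 5090 CPM (counts relative to library size, adjusted by edgeR's TMM method) in crush AAV-CNTF nerves, 4470 to 5800 CPM in crush AAV-null nerves and 1320 to 1840 CPM in sham nerves. In whole tissue, more cells of a type and more RNA per cell cannot be told apart, so every level below is a level in the nerve. Crush AAV-null replicate 3 had the highest microglia and macrophage sum of its group and was the highest library of its group for 19 of 45 members. Sham replicate 4, the highest sham library by that sum, was the highest for 21 of 45. Crush AAV-null replicate 6 stood apart from the other libraries on principal component 2 of all tested genes (-99.7, the others -9 to 24).

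Most innate receptor genes were higher in crush AAV-null nerves than in sham nerves. Of 45, 28 were higher, 2 were lower (Tlr3 and Clec3b) and 15 did not pass (edgeR quasi-likelihood test, Benjamini-Hochberg adjusted p under 0.05 over all 14194 genes). That is 62.2% and 4.44% of the members, against 14.7% higher and 12.9% lower among all genes tested (27.6% in either direction). These shares of all genes also stand beside the counts of each family below. The median log2 fold change was 1.51 over the members, with a range of -1.91 to 5.59, and 0.005 over all genes. In 21 members every crush AAV-null library lay above every sham library and in 3 every one lay below, against 10.5% and 10.1% of all genes. Without crush AAV-null replicate 3 the counts were 26 higher and 2 lower, and without replicate 6 they were 27 and 2.

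The listing itself favours genes that were high after crush. Every gene of the table reaches an FPKM (fragments scaled to gene length and depth) of 1 or more in 4 or 5 libraries of 1 group or more. Of the members, 28 met this in sham nerves, and of those 17 were higher, 2 lower and 9 neither after crush with AAV-null. The other 17 were listed only through a crush group, so a higher level there was part of how they entered the table. Of these 17, 11 were higher, 0 lower and 6 neither. The shares over all genes listed in the same 2 ways were not computed, so these split counts have no matching background.

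**Figure D1:**
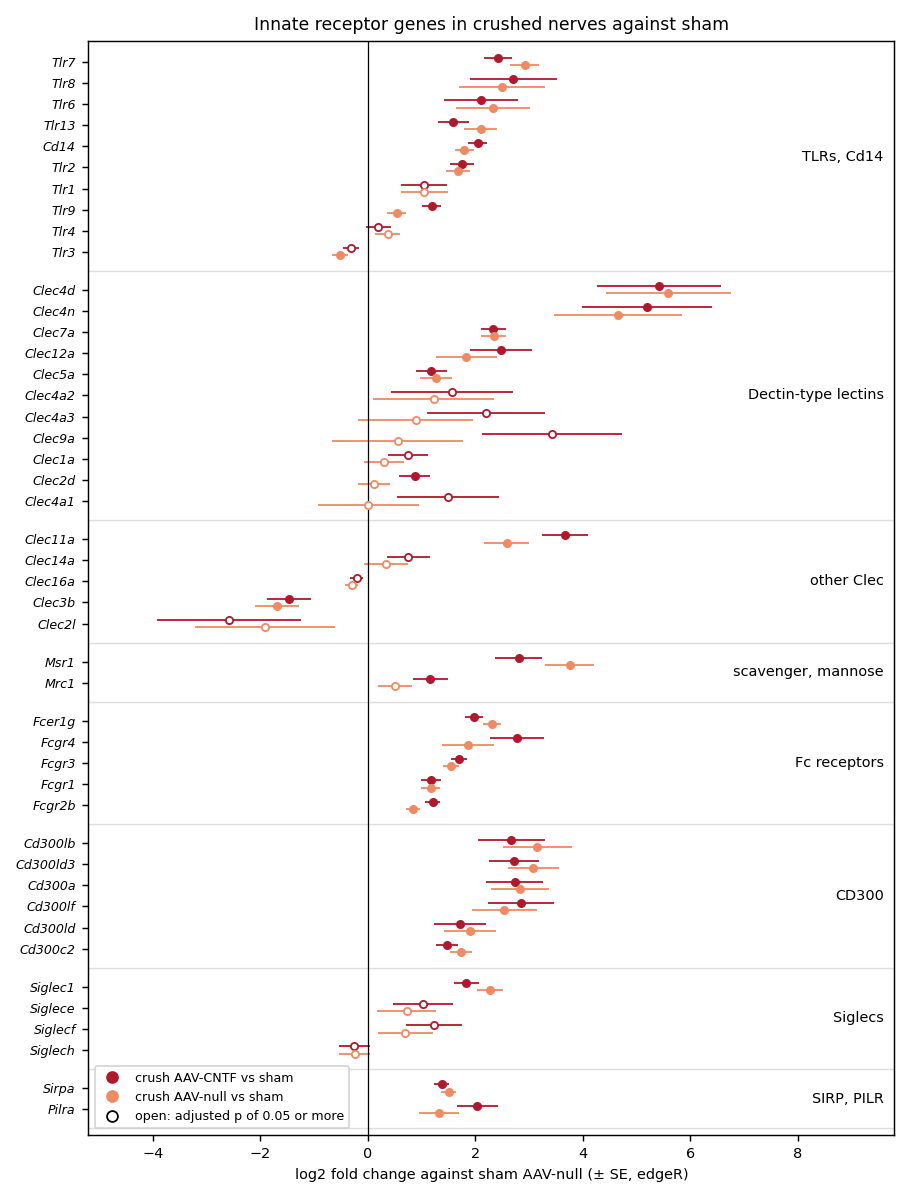
Each point is the log2 fold change of a member against sham AAV-null with its standard error (edgeR), for crush AAV-CNTF (dark red) and crush AAV-null (orange) with 5 libraries a group; filled points have an adjusted p under 0.05. Points right of the line at 0 are higher than in sham nerves: 30 filled for crush AAV-CNTF and 28 filled for crush AAV-null, with Clec3b filled to the left in both and Tlr3 in crush AAV-null. Both comparisons use the same 5 sham libraries.

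Of the 9 Toll-like receptor genes and Cd14, 7 rose, 1 fell and 2 did not pass after crush with AAV-null, with a median log2 fold change of 1.74. Tlr7 and Tlr8, receptors of single-stranded RNA, had the largest rises, and Tlr3, the receptor of double-stranded RNA, fell. Of these 10 genes, 8 met the listing's FPKM minimum in sham nerves. Tlr8 and Tlr6 were listed only through the crush groups, so a higher level there was part of how they entered the table. Tlr7, an endosomal receptor of single-stranded RNA, measured 44.1, 51.2, 37.3, 36.2 and 51 CPM in crush AAV-CNTF nerves, 60.5, 82.4, 49.5, 46.1 and 71.8 CPM in crush AAV-null nerves and 5.14, 4.94, 15.3, 6.22 and 9.35 CPM in sham nerves (here and below, replicates 2 to 6 in order). Every crushed nerve lay above every sham nerve, and the log2 fold change after crush with AAV-null was 2.92 ± 0.27 (SE; edgeR, adjusted p = 7.33e-08). Tlr8, its neighbour on the X chromosome, measured 6.29, 8.62, 6.7, 6.69 and 10.5 CPM in crush AAV-CNTF nerves, 7.87, 10.4, 3.42, 5.1 and 6.77 CPM in crush AAV-null nerves and 0.882, 0, 4.7, 0.161 and 0.162 CPM in sham nerves. Sham replicate 4 stood above the other sham nerves and above crush AAV-null replicate 4, so those groups overlapped; the change was 2.5 ± 0.81 (edgeR, adjusted p = 0.0243). The call for Tlr8 was lost when only these 10 libraries were fitted (adjusted p = 0.06) and without any of crush AAV-null replicate 3 or sham replicates 2, 5 and 6 (0.0512 to 0.0592).

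Tlr13, a receptor of bacterial ribosomal RNA in mice, measured 30.2, 23.7, 23.7, 16.4 and 27.1 CPM in crush AAV-CNTF nerves, 34.1, 47.6, 23.8, 32.1 and 34.4 CPM in crush AAV-null nerves and 10.1, 3.6, 14.9, 5.63 and 5.87 CPM in sham nerves. All crushed nerves were above all sham nerves (2.10 ± 0.30; edgeR, adjusted p = 1.75e-05). Tlr6, which pairs with Tlr2 at the cell surface to bind lipopeptides, was low, at 3.73, 4.05, 3.56, 1.37 and 3.23 CPM in crush AAV-CNTF nerves, 3.72, 5.07, 3.8, 4.87 and 1.25 CPM in crush AAV-null nerves and 0.882, 0.738, 0.186, 0.161 and 1.7 CPM in sham nerves. It rose by 2.33 ± 0.69 on the log2 scale (edgeR, adjusted p = 0.0141), with crush AAV-null replicate 6 below the highest sham nerve. Cd14, a co-receptor that hands lipopolysaccharide to Tlr4, measured 40.1, 32.5, 33.4, 40.4 and 41.2 CPM in crush AAV-CNTF nerves, 30.6, 33.7, 30.8, 25.7 and 37.5 CPM in crush AAV-null nerves and 12.3, 7.01, 7.77, 7.88 and 10.6 CPM in sham nerves. The groups did not overlap, and the change was 1.80 ± 0.17 (edgeR, adjusted p = 1.33e-07). Tlr2, the shared partner of Tlr1 and Tlr6, averaged 50.3 ± 12.3 CPM in crush AAV-null nerves and 15.8 ± 5.67 CPM in sham nerves (SD, n = 5 each) and rose by 1.68 ± 0.22 (edgeR, adjusted p = 7.14e-06).

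Tlr1 and Tlr4 did not pass. Tlr1, the other partner of Tlr2, averaged 6.46 ± 3.64 CPM in crush AAV-null nerves and 3.11 ± 0.87 CPM in sham nerves, with a change of 1.05 ± 0.43 (edgeR, adjusted p = 0.0752); without crush AAV-null replicate 2 its adjusted p was 0.0219, and with DESeq2 it also passed. Tlr4, the lipopolysaccharide receptor, averaged 26.1 ± 8.22 and 20.1 ± 5.27 CPM in those groups (0.37 ± 0.23; adjusted p = 0.255). Tlr9, an endosomal receptor of DNA with unmethylated CpG, measured 61.9, 45, 58.9, 48.1 and 34.2 CPM in crush AAV-CNTF nerves, 31.1, 31.3, 26.3, 33.9 and 35.4 CPM in crush AAV-null nerves and 15.8, 23.6, 28.3, 24.2 and 16.9 CPM in sham nerves. Only crush AAV-null replicate 4 lay inside the sham range, and the change was 0.54 ± 0.18 (edgeR, adjusted p = 0.0298). That call was lost without crush AAV-null replicate 5 or 6 or sham replicate 2 or 6 (adjusted p 0.0611 to 0.0857).

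Tlr3 went the other way. Its levels were 61.5, 54, 86, 50.9 and 49.4 CPM in crush AAV-CNTF nerves, 46.3, 53.3, 60.7, 48 and 53.6 CPM in crush AAV-null nerves and 66.5, 64, 92.9, 71 and 80.5 CPM in sham nerves. Every crush AAV-null nerve was below every sham nerve, while crush AAV-CNTF replicate 4 lay inside the sham range. Its log2 fold change was -0.52 ± 0.15 for crush AAV-null (edgeR, adjusted p = 0.0119) and -0.31 ± 0.15 for crush AAV-CNTF, which did not pass (edgeR, adjusted p = 0.118), except without crush AAV-CNTF replicate 4 (-0.48, adjusted p = 0.00874), with limma-voom or with a replicate block (0.0467 and 0.0438). Exons of Tlr3 overlap those of a gene on the opposite strand, Gm45542, and the sources used here do not say whether counting used strand. Per length, Tlr3 was the highest Toll-like receptor in sham nerves and Tlr7 the highest in crush AAV-null nerves: the FPKM ratio of Tlr7 to Tlr3 was 0.398 to 1 (median 0.716) in crush AAV-CNTF nerves, 0.719 to 2.73 (median 1.32) in crush AAV-null nerves and 0.0526 to 0.19 (median 0.08) in sham nerves. That pair of genes was chosen after its values were seen, and the ratio carries no test. FPKM also did not follow CPM evenly between libraries. Tlr7 had 46.1 CPM and 13 FPKM in crush AAV-null replicate 5, against 49.5 CPM and 27.4 FPKM in crush AAV-null replicate 4.

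**Figure D2:**
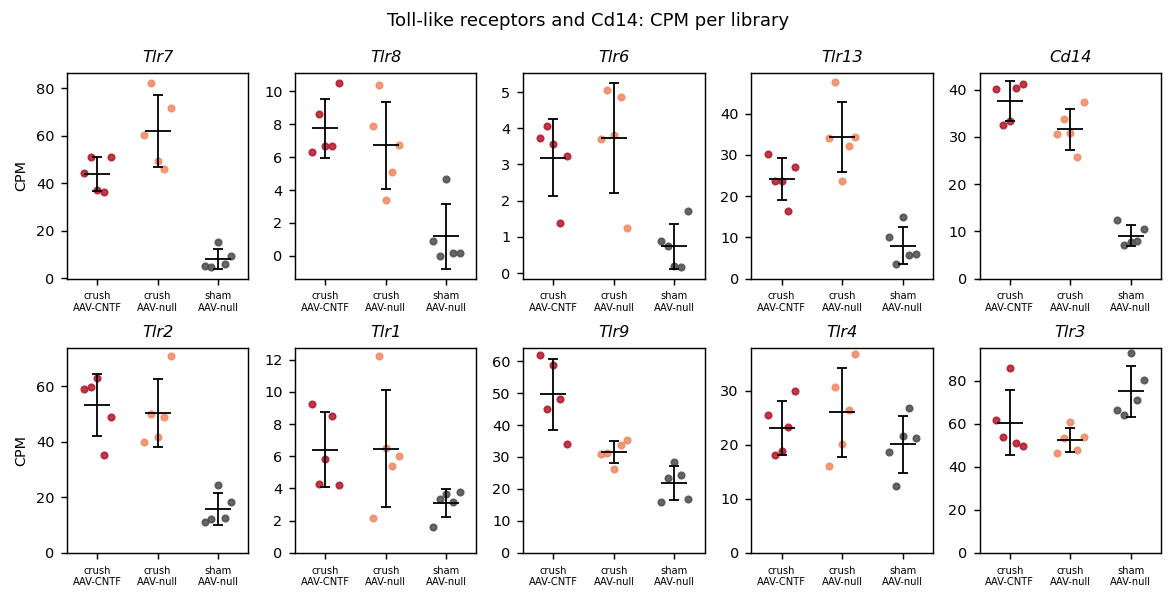
CPM in each library (points) with the group mean and SD (bars, n = 5) for the 9 Toll-like receptor genes and Cd14, in crush AAV-CNTF, crush AAV-null and sham AAV-null nerves. Crushed nerves lie above all sham nerves for Tlr7, Tlr13, Cd14 and Tlr2, Tlr4 overlaps in all groups, and for Tlr3 the 5 crush AAV-null nerves lie below all sham nerves.

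The C-type lectins of the Dectin-1 and Dectin-2 families sit in clusters on chromosome 6, apart from Clec5a, which lies elsewhere on it. Of 11 listed, 5 rose after crush with AAV-null, 0 fell and 6 did not pass (median log2 fold change 1.23). Only 3 of these 11, Clec7a, Clec5a and Clec2d, met the listing's FPKM minimum in sham nerves. Clec7a (Dectin-1), the receptor of fungal beta-glucans that signals through its own tail, was the most abundant: 126, 84.1, 104, 68.2 and 99.8 CPM in crush AAV-CNTF nerves, 87, 117, 95.7, 83.8 and 102 CPM in crush AAV-null nerves and 13, 19.5, 34.6, 12.4 and 15.9 CPM in sham nerves. All crushed nerves were above all sham nerves (2.35 ± 0.23; edgeR, adjusted p = 1.81e-07). GENCODE M21 classes Clec7a as a polymorphic pseudogene, a locus that is intact in some strains. Clec4n (Dectin-2) and Clec4d, neighbours that form receptors with Fcer1g, were close to absent in sham nerves. Clec4d measured 3.77, 2.09, 3.01, 2.2 and 3.07 CPM in crush AAV-CNTF nerves, 5.77, 5.07, 0.128, 3.88 and 1.15 CPM in crush AAV-null nerves and 0, 0, 0, 0 and 0.283 CPM in sham nerves, and its sham reads were 7 counts in 1 library. Clec4n measured 10.6, 1.72, 5.89, 5.43 and 0.28 CPM in crush AAV-CNTF nerves, 2.79, 3.02, 0.727, 3.88 and 6.05 CPM in crush AAV-null nerves and 0.637, 0, 0, 0 and 0 CPM in sham nerves, with 13 sham counts in 1 library.

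The fitted changes of these neighbours after crush with AAV-null were 5.59 ± 1.16 for Clec4d and 4.66 ± 1.19 for Clec4n (edgeR, adjusted p = 0.000933 and 0.00511), and their size depends on how the zeros in sham are handled. With only the 10 libraries compared, Clec4d was below the low-count filter and was not tested. With limma-voom Clec4n did not pass (adjusted p = 0.0576). Clec4d, Clec4n and Clec12a had been listed only through the crush groups, so a higher level there was part of how they entered the table. Clec12a, an inhibitory receptor of uric acid crystals and dead cells, measured 5.81, 6.59, 13.2, 9.91 and 3.31 CPM in crush AAV-CNTF nerves, 4.25, 11.6, 1.07, 4.69 and 3.28 CPM in crush AAV-null nerves and 1.03, 2.12, 2.28, 0.858 and 0.648 CPM in sham nerves. Crush AAV-null replicate 3 was far above its group and replicate 4 lay inside the sham range; the change was 1.84 ± 0.57 (edgeR, adjusted p = 0.0195). Without crush AAV-null replicate 3 it was 1.26 (adjusted p = 0.112), and it did not pass with limma-voom (0.205) or with only these 10 libraries (0.0517). Clec5a, an activating receptor that uses Tyrobp, measured 12.5, 11.6, 17.6, 8.7 and 8.22 CPM in crush AAV-CNTF nerves, 13.6, 15.2, 14.3, 9.66 and 9.84 CPM in crush AAV-null nerves and 6.91, 3.23, 3.58, 7.29 and 4.86 CPM in sham nerves. Crushed nerves lay above sham nerves without overlap (1.27 ± 0.29; edgeR, adjusted p = 0.00223).

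The 6 lectins that did not pass after crush with AAV-null were Clec4a1, Clec4a2, Clec4a3, Clec9a, Clec1a and Clec2d, with log2 fold changes of 0.01 to 1.23. Clec4a1, Clec4a2 and Clec4a3, relatives of an inhibitory dendritic cell receptor, were low, at 0.0489 to 4.36, 0.0978 to 2.71 and 0.812 to 2.44 CPM in crush AAV-null nerves and 0 to 2.9, 0 to 1.86 and 0 to 2.65 CPM in sham nerves. These 3 and Clec9a were listed through the crush AAV-CNTF group alone. Clec1a averaged 5.29 ± 1.46 CPM in crush AAV-null and 4.31 ± 1.84 CPM in sham nerves, and Clec2d, a ligand of natural killer cell receptors, 19.2 ± 3.81 and 17.6 ± 9.46 CPM. Exons of Clec9a overlap those of Clec1b on the same strand, so its reads may be shared.

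The other 5 Clec genes have little in common beyond the name: 1 rose, 1 fell and 3 did not pass (median -0.3). Among all genes tested 14.7% were higher and 12.9% lower, so these counts do not set the 5 apart. Clec11a, a secreted growth factor of bone marrow, measured 10, 19.6, 17, 22.2 and 10.3 CPM in crush AAV-CNTF nerves, 3.72, 2.84, 7.61, 9.43 and 13.7 CPM in crush AAV-null nerves and 1.18, 1.2, 1.35, 0.697 and 1.74 CPM in sham nerves. It rose without overlap by 2.59 ± 0.42 (edgeR, adjusted p = 7.25e-05), and it had been listed only through the crush groups. Clec3b (tetranectin), a secreted plasminogen-binding protein, measured 1.84, 3.98, 6.67, 10.1 and 6.27 CPM in crush AAV-CNTF nerves, 4.45, 2.8, 3.25, 6.59 and 7.61 CPM in crush AAV-null nerves and 10.6, 15.2, 8.52, 20.9 and 24.8 CPM in sham nerves. All crush AAV-null nerves were below all sham nerves (-1.69 ± 0.41; edgeR, adjusted p = 0.00374), and it was also lower in crush AAV-CNTF nerves (-1.47 ± 0.41; adjusted p = 0.00899). Clec16a, a regulator of autophagy and endosomes rather than a sugar receptor, had the highest FPKM of these 5 in crush AAV-null nerves and measured 65.1, 48.9, 40.4, 50.5 and 58.2 CPM in crush AAV-CNTF nerves, 48.6, 48.9, 50.7, 52.7 and 45.7 CPM in crush AAV-null nerves and 63.7, 55.4, 54.1, 64.2 and 66.6 CPM in sham nerves. Its crush AAV-null nerves also lay below all sham nerves, but the change of -0.30 ± 0.12 did not pass (edgeR, adjusted p = 0.0757).

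Clec14a, an endothelial receptor, averaged 9.49 ± 6.99 CPM in crush AAV-null and 7.5 ± 2.21 CPM in sham nerves (adjusted p = 0.598, edgeR). Clec2l was below 7 CPM in every library, with 0 counts in some libraries of each group, and its change of -1.91 ± 1.31 did not pass (edgeR, adjusted p = 0.312). Crush AAV-null replicate 5 held most of that group's Clec2l reads, and without it the change was -4.1 (adjusted p = 0.0477).

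Msr1 and Mrc1 are endocytic receptors of macrophages, for modified lipoproteins and for mannose-bearing glycoproteins. Msr1 measured 15.9, 10.3, 15.5, 19.9 and 9.78 CPM in crush AAV-CNTF nerves, 31.4, 46.6, 10.3, 23.3 and 26.5 CPM in crush AAV-null nerves and 2.89, 1.8, 3.49, 1.72 and 0.324 CPM in sham nerves. Crushed nerves lay above sham nerves without overlap (3.76 ± 0.46; edgeR, adjusted p = 2.61e-06), and Msr1 had been listed only through the crush groups. Mrc1, which in the nerve and brain marks macrophages of vessels and coverings, averaged 15.5 ± 4.94 CPM in crush AAV-null and 11 ± 3.5 CPM in sham nerves and did not pass (0.50 ± 0.32; edgeR, adjusted p = 0.273). The border macrophage list, whose gene Cd163 was not listed, summed to 128 to 246 CPM in crush AAV-CNTF, 162 to 409 CPM in crush AAV-null and 36.1 to 52.1 CPM in sham nerves, and 3 of its 7 listed genes rose after crush with AAV-null. Its part in these levels was not tested.

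All 5 Fc receptor genes rose, and all 5 met the listing's minimum in sham nerves. Fcer1g, the signalling chain shared by Fc receptors, Dectin-2 and several CD300 receptors, was the most abundant member per length in every group, at 323 ± 34.4, 415 ± 109.5 and 73 ± 20.6 FPKM (SD, n = 5) in crush AAV-CNTF, crush AAV-null and sham nerves. In counts it measured 156, 138, 147, 116 and 159 CPM in crush AAV-CNTF nerves, 156, 255, 165, 168 and 163 CPM in crush AAV-null nerves and 43.5, 30.8, 50.1, 31.2 and 27.6 CPM in sham nerves. Crush AAV-null replicate 3 stood far above the other 4, and all crushed nerves were above all sham nerves (2.31 ± 0.17; edgeR, adjusted p = 3.49e-09). Fcgr4, an activating IgG receptor, measured 18.6, 15.2, 40.6, 30.7 and 12.5 CPM in crush AAV-CNTF nerves, 10.5, 14.1, 11.6, 10.7 and 15.5 CPM in crush AAV-null nerves and 0.147, 2.21, 5.4, 5.42 and 3.97 CPM in sham nerves. The groups did not overlap with sham (1.86 ± 0.49; edgeR, adjusted p = 0.00656).

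Fcgr3, the second activating IgG receptor of the chromosome 1 cluster, measured 141, 105, 137, 94.6 and 114 CPM in crush AAV-CNTF nerves, 97.2, 129, 89.8, 101 and 113 CPM in crush AAV-null nerves and 32.5, 37.2, 49.6, 27.1 and 35.3 CPM in sham nerves. Its change was 1.54 ± 0.15 (edgeR, adjusted p = 1.81e-07), with no overlap. Fcgr2b, the inhibitory IgG receptor beside it, measured 192, 139, 165, 109.7 and 131 CPM in crush AAV-CNTF nerves, 103, 125, 99.7, 120.1 and 126 CPM in crush AAV-null nerves and 66.5, 66.7, 70.9, 49.3 and 65.8 CPM in sham nerves. It also rose without overlap, by 0.84 ± 0.14 (edgeR, adjusted p = 7.02e-05). Fcgr1, the high-affinity IgG receptor, averaged 32.8 ± 5.27 CPM in crush AAV-null and 14.6 ± 3.53 CPM in sham nerves (1.17 ± 0.18; adjusted p = 4.51e-05). The FPKM ratio of Fcgr3 to Fcgr2b was 1.12 to 1.34 in crush AAV-CNTF, 1.19 to 1.65 in crush AAV-null and 0.879 to 1.13 in sham nerves, so the crush AAV-null ratios lay above every sham ratio; the pair was chosen after its values were seen. Fcgr2b and Fcgr3 had expected counts that were not whole in 8 libraries each, a sign that some of their reads were divided between genes or transcripts, and exons of Fcgr2b overlap Gm38204 on the opposite strand.

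The CD300 genes, a cluster on chromosome 11 from 114890041 to 115133992 (mm10, GENCODE M21), encode receptors of lipids exposed on dying cells. All 6 listed rose after crush with AAV-null, with a median log2 fold change of 2.69. Only 2 of the 6, Cd300c2 and Cd300ld3, met the listing's minimum in sham nerves. The others were listed only through the crush groups, so a higher level there was part of how they entered the table. Cd300lb, an activating receptor that uses Tyrobp, measured 8.01, 8.96, 6.67, 6 and 6.91 CPM in crush AAV-CNTF nerves, 12.1, 8.98, 8.42, 8.3 and 13.5 CPM in crush AAV-null nerves and 0, 3.42, 0.977, 0.375 and 0.931 CPM in sham nerves. Sham replicate 3 stood above the other sham nerves and still below all crushed nerves (3.16 ± 0.63; edgeR, adjusted p = 0.000675). Cd300ld3 measured 9.65, 11.6, 8.16, 7.94 and 16.6 CPM in crush AAV-CNTF nerves, 12, 30.9, 7.99, 7.4 and 11.2 CPM in crush AAV-null nerves and 1.32, 3.46, 0.512, 1.5 and 1.38 CPM in sham nerves, with crush AAV-null replicate 3 far above the other 4. Its change was 3.08 ± 0.47 (edgeR, adjusted p = 3.8e-05); its counts were not whole in 7 libraries, and near copies of it in the cluster may share its reads.

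Cd300a, an inhibitory receptor of phosphatidylserine, measured 15.3, 12.9, 8, 7.22 and 23.3 CPM in crush AAV-CNTF nerves, 23.4, 12, 6.07, 17.3 and 13.1 CPM in crush AAV-null nerves and 0.294, 1.38, 4.75, 0.804 and 2.75 CPM in sham nerves. Crushed nerves lay above sham nerves without overlap (2.84 ± 0.54; edgeR, adjusted p = 0.000394). Cd300c2, an activating receptor that uses Fcer1g, was the most abundant per length, at 35.1 ± 6.42 FPKM in crush AAV-null and 9.25 ± 2.04 FPKM in sham nerves, and in counts it measured 23.1, 32.8, 20.6, 25.5 and 36.6 CPM in crush AAV-CNTF nerves, 34.3, 36.1, 24.7, 42.3 and 29.7 CPM in crush AAV-null nerves and 7.11, 10.2, 8.75, 11 and 12.9 CPM in sham nerves. It rose by 1.74 ± 0.20 without overlap (edgeR, adjusted p = 1.74e-06). Cd300lf, an inhibitory receptor, changed by 2.54 ± 0.60 and Cd300ld, an activating one, by 1.91 ± 0.48 (edgeR, adjusted p = 0.00295 and 0.00498); for Cd300ld, crush AAV-CNTF replicate 6 and crush AAV-null replicate 5 lay inside the sham range.

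**Figure D3:**
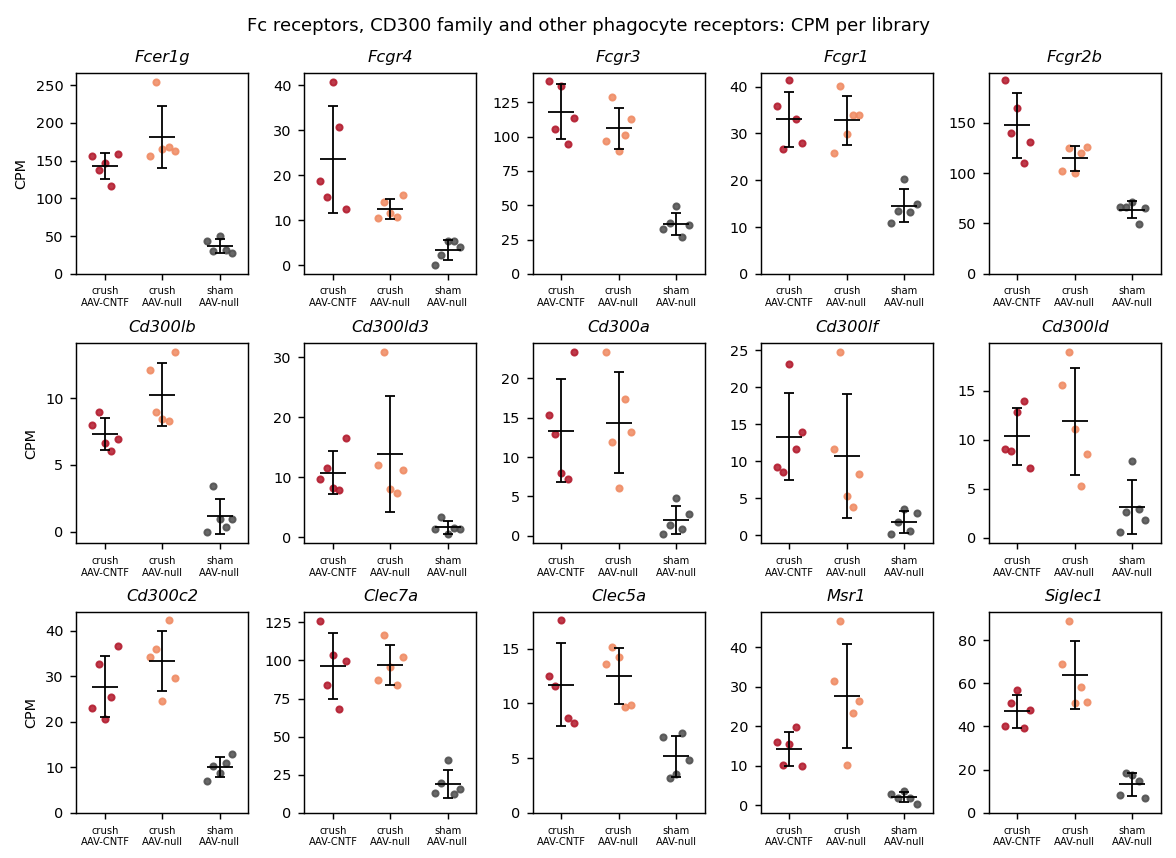
CPM in each library (points) with the group mean and SD (bars, n = 5) for the 5 Fc receptor genes, the 6 CD300 genes, Clec7a, Clec5a, Msr1 and Siglec1, in crush AAV-CNTF, crush AAV-null and sham AAV-null nerves. Apart from Cd300ld, every crushed nerve lies above every sham nerve in these panels, and single crush AAV-null libraries stand high for Fcer1g and Cd300ld3.

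The 6 CD300 genes lie together, and the 250 bases before the RefSeq start of each are shown, with those of Fcgr4 and Fcer1g from the chromosome 1 cluster. Shared control of these genes was not tested. They are RefSeq windows of GRCm38.p6, each written 5′ to 3′ on the gene's strand. For Cd300lb, Cd300ld, Cd300ld3, Fcgr4 and Fcer1g the gene start of GENCODE M21 lies inside the bases shown, so part of them is transcribed in that annotation. Capitals mark GAGGAAG or its reverse complement, a core of the sites bound by PU.1 (Spi1), a factor that myeloid cells depend on. The windows of Cd300a (chr11:114889791-114890040, plus strand), Cd300ld (chr11:114989887-114990136), Cd300ld3 (chr11:115048331-115048580) and Cd300lf (chr11:115133993-115134242), the last 3 on the minus strand, hold a match.
Cd300a: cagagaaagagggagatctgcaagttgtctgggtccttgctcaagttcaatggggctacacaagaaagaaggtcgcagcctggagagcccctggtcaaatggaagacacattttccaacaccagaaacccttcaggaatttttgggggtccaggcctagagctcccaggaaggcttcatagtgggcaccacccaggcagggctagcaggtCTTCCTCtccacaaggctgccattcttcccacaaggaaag
Cd300ld: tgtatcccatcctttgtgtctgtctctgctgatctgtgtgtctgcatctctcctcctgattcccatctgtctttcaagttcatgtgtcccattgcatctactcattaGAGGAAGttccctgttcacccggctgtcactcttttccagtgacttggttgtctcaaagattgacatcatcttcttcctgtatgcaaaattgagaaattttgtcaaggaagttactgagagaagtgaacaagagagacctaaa
Cd300ld3: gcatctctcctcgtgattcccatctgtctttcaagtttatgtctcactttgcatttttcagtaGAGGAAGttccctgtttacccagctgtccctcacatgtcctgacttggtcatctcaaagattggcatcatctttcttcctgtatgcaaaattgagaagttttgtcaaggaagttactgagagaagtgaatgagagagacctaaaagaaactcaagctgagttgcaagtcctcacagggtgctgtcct
Cd300lf: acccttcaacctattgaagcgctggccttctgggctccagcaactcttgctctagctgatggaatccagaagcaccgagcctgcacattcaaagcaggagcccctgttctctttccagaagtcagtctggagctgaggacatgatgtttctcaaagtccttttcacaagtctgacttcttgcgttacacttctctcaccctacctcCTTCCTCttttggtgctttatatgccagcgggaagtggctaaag
The windows of Cd300lb (chr11:114934372-114934621) and Cd300c2 (chr11:115001881-115002130), both on the minus strand, hold none.
Cd300lb: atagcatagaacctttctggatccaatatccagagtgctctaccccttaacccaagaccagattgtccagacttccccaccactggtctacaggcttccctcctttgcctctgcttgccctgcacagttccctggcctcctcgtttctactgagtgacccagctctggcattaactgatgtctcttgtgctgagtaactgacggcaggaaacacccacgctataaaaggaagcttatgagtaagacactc
Cd300c2: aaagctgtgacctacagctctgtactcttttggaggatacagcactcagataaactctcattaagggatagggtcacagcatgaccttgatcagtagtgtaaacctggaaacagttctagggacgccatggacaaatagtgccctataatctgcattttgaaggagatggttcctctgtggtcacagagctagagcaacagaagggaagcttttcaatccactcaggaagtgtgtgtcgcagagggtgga
In the Fc receptor cluster the window of Fcgr4 (chr1:171018676-171018925, plus strand) holds a match and that of Fcer1g (chr1:171234350-171234599, minus strand) none.
Fcgr4: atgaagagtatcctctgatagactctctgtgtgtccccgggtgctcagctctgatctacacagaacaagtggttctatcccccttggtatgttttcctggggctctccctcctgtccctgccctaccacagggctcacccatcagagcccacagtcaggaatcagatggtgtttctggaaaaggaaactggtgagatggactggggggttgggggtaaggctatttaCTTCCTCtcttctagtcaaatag
Fcer1g: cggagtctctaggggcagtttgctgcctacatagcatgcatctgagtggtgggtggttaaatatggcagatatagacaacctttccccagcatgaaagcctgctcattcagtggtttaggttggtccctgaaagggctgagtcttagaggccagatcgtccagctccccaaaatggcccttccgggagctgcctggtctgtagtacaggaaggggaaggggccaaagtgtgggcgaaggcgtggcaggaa

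RefSeq windows of 250 bases before to 50 after a start were found for 36 members, 41 windows in all. In 35 of the 41 the bases just after the start were found in a GENCODE transcript of the gene. On either strand GAGGAAG was in 20 of the 41 windows (48.8%), against 13.6% of 32851 windows of all genes. The shorter GAGGAA was in 70.7% of member windows and 28.3% of all, the longer GAGGAAGT in 14.6% and 3.2%, and GGAAGT, a core of the wider ETS family, in 46.3% and 23.8%; these 4 overlap one another. An AP-1 site, TGANTCA, was in 7.32% of member windows and 7.81% of all. The interferon-stimulated response element was in 14.6% and 3.44%, a STAT site, TTCNNNGAA, in 14.6% and 8.3%, and TTCNNGGAA in 2.44% and 4.81%. A match describes letters in a window and neither binding nor control of the gene, and neighbouring members of a family share sequence.

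Siglecs bind sialic acids, and 1 of the 4 listed rose after crush with AAV-null, against 14.7% of all genes tested. Siglec1 (sialoadhesin), a macrophage adhesion receptor, was the 1 of 4 that rose, and measured 40.3, 50.7, 57.1, 39.2 and 47.4 CPM in crush AAV-CNTF nerves, 69.1, 88.8, 50.9, 58.4 and 51.5 CPM in crush AAV-null nerves and 8.48, 18.3, 17.4, 14.8 and 6.92 CPM in sham nerves. Crushed nerves lay above sham nerves without overlap (2.27 ± 0.24; edgeR, adjusted p = 4.07e-07). Siglech, which uses Tyrobp and is known from microglia and plasmacytoid dendritic cells, had the highest FPKM of the 4 and measured 15.9, 18.9, 26.4, 17.7 and 10.4 CPM in crush AAV-CNTF nerves, 19.4, 9.47, 30.5, 9.97 and 20.6 CPM in crush AAV-null nerves and 24.9, 17.1, 26.7, 21.1 and 16.8 CPM in sham nerves. The groups overlapped throughout, and its change was -0.25 ± 0.29 (edgeR, adjusted p = 0.589). Siglece and Siglecf, inhibitory receptors, averaged 4.89 ± 2.02 and 3.28 ± 1.41 CPM in crush AAV-null nerves and 2.96 ± 1.71 and 2.02 ± 1.05 CPM in sham nerves, and did not pass (edgeR, adjusted p = 0.37 and 0.354).

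Both paired receptors listed rose. Sirpa, an inhibitory receptor of phagocytes that binds Cd47, was the member with the highest CPM in every group and measured 375, 349.7, 330.0, 255 and 399.9 CPM in crush AAV-CNTF nerves, 336, 436, 307, 348 and 448 CPM in crush AAV-null nerves and 110.3, 122, 168, 126 and 132 CPM in sham nerves. The groups did not overlap with sham (1.51 ± 0.14; edgeR, adjusted p = 6.28e-08). Its ligand Cd47 changed by -0.22 ± 0.09 and did not pass (edgeR, adjusted p = 0.0745). Pilra, an inhibitory receptor of the PILR pair, measured 15.8, 13.1, 24.1, 14.1 and 11.2 CPM in crush AAV-CNTF nerves, 6.11, 11.3, 8.12, 6 and 16 CPM in crush AAV-null nerves and 4.17, 2.26, 7.17, 3.7 and 1.74 CPM in sham nerves. It changed by 1.32 ± 0.37 (edgeR, adjusted p = 0.0103), with crush AAV-null replicates 2 and 5 below the highest sham nerve; exons of Pilra overlap Zcwpw1 on the opposite strand.

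Per length, the order of the most abundant members differed between the groups. In crush AAV-null nerves it was Fcer1g (415 ± 109.5 FPKM; SD, n = 5), Sirpa (175 ± 28.1), Fcgr3 (97.4 ± 16.5), Clec7a (83.5 ± 16.9) and Fcgr2b (66.3 ± 9.97). In sham nerves it was Fcer1g (73 ± 20.6 FPKM), Sirpa (53.9 ± 17.2), Fcgr2b (30.3 ± 5.39), Fcgr3 (29.5 ± 7.06) and Tlr3 (25.4 ± 7.42). Neighbours from the third place on differed by about 1 SD or less in both groups, so their order is not firm.

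The partners of the receptors are set beside all genes tested, of which 14.7% rose and 12.9% fell after crush with AAV-null. Of 24 adaptors and signalling genes of Toll-like receptors, 7 rose, 3 fell and 14 did not pass, with a median log2 fold change of 0.27; the share that fell was near that of all genes. Those that rose most were Cd180 (2.34 ± 0.15) and Ly86 (1.85 ± 0.11), which form a receptor complex related to Tlr4, and Ticam2 (1.62 ± 0.58), an adaptor of Tlr4 (edgeR, adjusted p = 8.27e-10, 3.56e-10 and 0.0426). The 3 that fell were Nfkbia (-0.72 ± 0.15), Traf6 (-0.42 ± 0.15) and Tollip (-0.38 ± 0.11), chosen after their values were seen. Of 18 genes of the Fcer1g and Tyrobp pathway outside the members, 12 rose, 0 fell and 6 did not pass (median 1.3), led by Tyrobp (2.77 ± 0.20), the kinase Fgr (1.98 ± 0.35) and the adaptor Lat2 (1.95 ± 0.36; edgeR, adjusted p = 2.86e-09, 0.000188 and 0.000325).

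Among 11 inhibitory receptors, phosphatases and adaptors 6 rose, 1 fell and 4 did not pass (median 0.56). The 1 that fell was the phosphatase Ptpn11 (-0.49 ± 0.09, edgeR, adjusted p = 0.000153), chosen after its value was seen. Cd200r1, an inhibitory receptor of myeloid cells, changed by 2.91 ± 0.98, Ptpn6, the phosphatase of many inhibitory receptors, by 1.72 ± 0.22 and the lipid phosphatase Inpp5d by 1.43 ± 0.11 (edgeR, adjusted p = 0.0308, 6.28e-06 and 1.32e-08). Of 12 known ligands 9 were listed, and 6 rose, led by the proteoglycans Bgn (1.45 ± 0.24) and Vcan (1.00 ± 0.11) and the chaperone Calr (0.76 ± 0.10; edgeR, adjusted p = 0.00011, 1.33e-06 and 4.99e-06). Against sham, crush AAV-CNTF nerves had 10 higher and 2 lower of the Toll-like receptor partners, 14 and 0 of the Fcer1g and Tyrobp pathway, 4 and 1 of the inhibitory list and 5 and 0 of the ligands, from the same sham libraries, where 17% of all genes were higher and 14.3% lower.

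Set against the microglia and macrophage markers, the members spread widely. The mean log2 CPM of the 13 markers was 7.87 ± 0.2 in crush AAV-CNTF, 7.95 ± 0.15 in crush AAV-null and 6.17 ± 0.17 in sham nerves (SD, n = 5). After subtracting it in each library, 31 of 45 members overlapped between crush AAV-null and sham nerves. Above sham without overlap were Msr1 (by 2.08 on the log2 scale), Tlr7 (1.23) and Fcer1g (0.54), against 0.683% of all genes. Of these, Msr1 was listed only through the crush groups, so its higher level there was part of how it entered the table. Below were 11, against 76.8% of all genes: Clec3b (-3.45), Tlr3 (-2.29), Siglech (-2.14), Clec16a (-2.08), Clec2d (-1.52), Clec1a (-1.44), Tlr4 (-1.43), Mrc1 (-1.29), Tlr9 (-1.22), Fcgr2b (-0.93) and Fcgr1 (-0.6). Tlr9, Fcgr2b and Fcgr1 rose in the nerve, by less than the mean of the markers. These differences carry no test, and cells other than microglia and macrophages also express some of the genes.

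**Figure D4:**
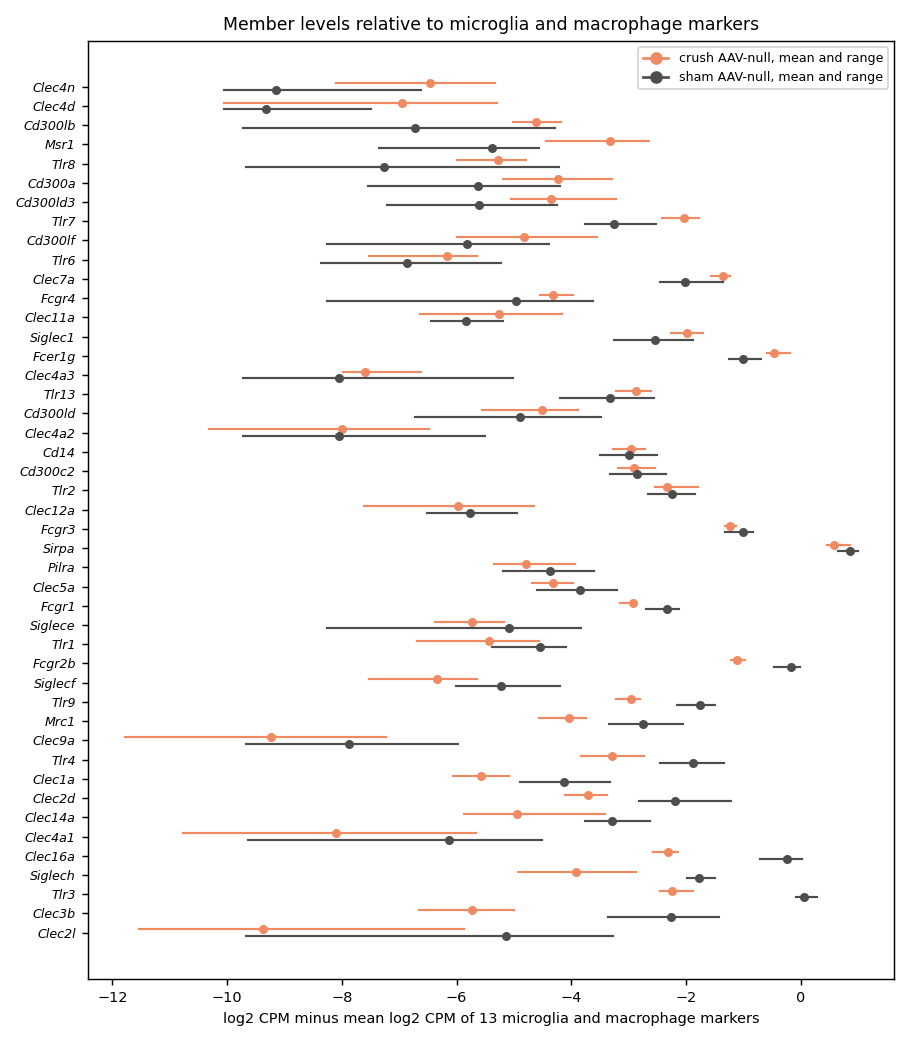
For each member, log2 CPM minus the mean log2 CPM of 13 microglia and macrophage markers in the same library, as the mean (point) and the range (line) over 5 crush AAV-null (orange) and 5 sham AAV-null (grey) nerves. The ranges of Msr1, Tlr7 and Fcer1g are higher and separate in crush AAV-null nerves, those of 11 members, such as Tlr3 and Clec3b, are lower and separate, and 31 overlap.

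The second comparison asked whether AAV-CNTF altered these genes in crushed nerves. No innate receptor gene passed: 0 of 45 were higher and 0 lower in crush AAV-CNTF against crush AAV-null (edgeR, smallest adjusted p = 0.213), and 8 (17.8%) had an unadjusted p under 0.05, against 1091 of 14194 genes (7.69%). Among all genes 0.0423% were higher and 0.0141% lower, 0.0564% or 8 genes in all. DESeq2 and limma-voom also called 0 members, and the authors' deposited table holds 0 of 45 at an adjusted p under 0.05. The median change over members was 0.157 and 26 of 45 were positive. Missing the threshold does not show that the levels were alike.

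The 3 members with the smallest p were Tlr9, Clec11a and Fcgr2b, whose levels are given above. Tlr9 was 49.6 ± 11.2 CPM in crush AAV-CNTF and 31.6 ± 3.47 CPM in crush AAV-null nerves (SD, n = 5 each; 0.65 ± 0.18 on the log2 scale, edgeR, adjusted p = 0.213). In 4 of 5 crush AAV-CNTF nerves it was above every crush AAV-null nerve. Clec11a averaged 15.8 ± 5.48 CPM in crush AAV-CNTF and 7.47 ± 4.43 CPM in crush AAV-null nerves (1.08 ± 0.39; adjusted p = 0.447), and Fcgr2b 147 ± 31.8 and 115 ± 12.6 CPM (0.36 ± 0.13; adjusted p = 0.464). Clec2d was the only member without overlap between the 2 crush groups, at 22.3 to 47.9 CPM in crush AAV-CNTF and 14.2 to 22.1 CPM in crush AAV-null nerves (0.75 ± 0.30; edgeR, adjusted p = 0.508), against 0.838% of all genes above and 0.712% below without overlap.

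Msr1 and Fcer1g had negative differences that did not pass. Msr1 was 14.3 ± 4.24 CPM in crush AAV-CNTF and 27.6 ± 13.2 CPM in crush AAV-null nerves (-0.95 ± 0.40; edgeR, adjusted p = 0.557), and Fcer1g 143 ± 17.4 and 181 ± 41.2 CPM (-0.34 ± 0.16; adjusted p = 0.647). Mrc1 averaged 24.6 ± 13.3 CPM in crush AAV-CNTF and 15.5 ± 4.94 CPM in crush AAV-null nerves, with crush AAV-CNTF replicate 5 at 46.4 CPM (0.66 ± 0.32; adjusted p = 0.647). The FPKM ratio of Tlr7 to Tlr9, both endosomal, was 0.579 to 1.42 in crush AAV-CNTF nerves, 1.25 to 3.41 in crush AAV-null nerves and 0.191 to 1.31 in sham nerves, a pair chosen after its values were seen. FPKM of Tlr7 did not follow its CPM evenly, so the ratio is not firm. In sham replicate 6, Tlr7 had 9.35 CPM and 6.27 FPKM, against 15.3 CPM and 4.18 FPKM in sham replicate 4.

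Clec9a, a receptor of dead cell actin that marks cross-presenting dendritic cells, had the largest difference, 2.87 ± 1.26 on the log2 scale (edgeR, adjusted p = 0.597). It measured 5.73, 2.95, 7.48, 6.46 and 0 CPM in crush AAV-CNTF nerves, 0.196, 0, 1.11, 0.18 and 1.56 CPM in crush AAV-null nerves and 0.441, 0, 0.652, 0 and 0.972 CPM in sham nerves. In 4 of 5 crush AAV-CNTF nerves it was above every other library, and in replicate 6 it had 0 counts. Clec9a was listed through the crush AAV-CNTF group alone, so a high level there was a condition of its listing. Dendritic cell markers, of which Flt3 and Cd209a were not listed, summed to 175 to 332 CPM in crush AAV-CNTF, 129 to 166 CPM in crush AAV-null and 54.2 to 84.6 CPM in sham nerves. None of the 7 listed passed between the crush groups, with a median log2 difference of 0.77. Xcr1, which marks the same cells, differed by 3.77 ± 1.56 and Itgax by 0.84 ± 0.23 (edgeR, adjusted p = 0.548 and 0.229). Batf3 and Zbtb46 differed by 0.69 ± 0.48 and 0.60 ± 0.37 (edgeR, adjusted p = 0.828 and 0.787). These 4 genes are named with their values known. T and NK cell markers, with Cd3d, Cd8a, Klrb1c, Ncr1 and Gzmb not listed, summed to 20.7 to 73.3 CPM in crush AAV-CNTF, 10.8 to 22.2 CPM in crush AAV-null and 10.8 to 27.3 CPM in sham nerves. The part of either list in the members' levels was not tested.

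**Figure D5:**
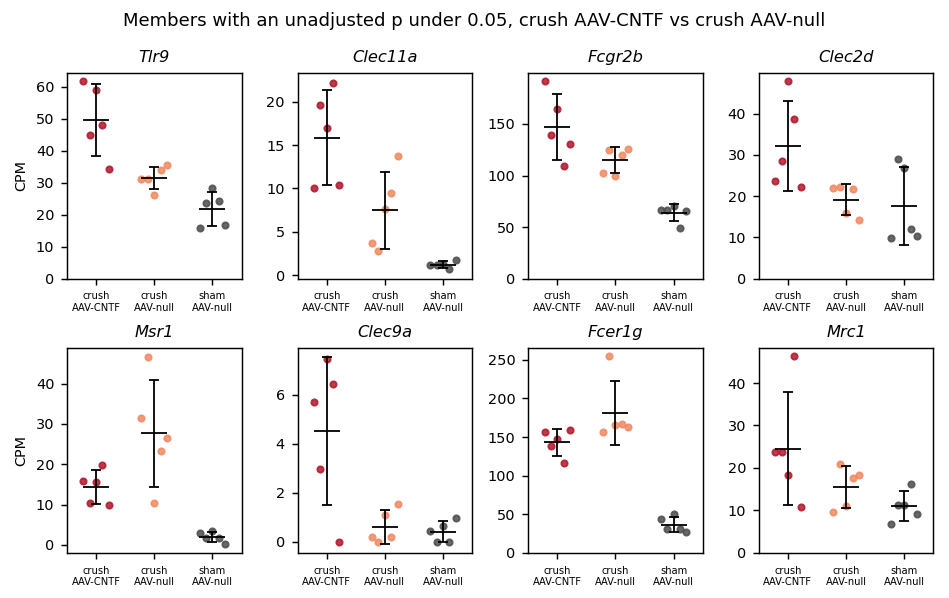
CPM in each library (points) with the group mean and SD (bars, n = 5) for the 8 members with an unadjusted p under 0.05 in crush AAV-CNTF against crush AAV-null; none passed after adjustment. Clec2d shows no overlap between the 2 crush groups, Clec9a is high in 4 of 5 crush AAV-CNTF nerves, and Msr1 and Fcer1g have lower means with AAV-CNTF.

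Against sham, crush AAV-CNTF nerves had 30 members higher, 1 lower (Clec3b) and 14 neither (edgeR), against 17% higher and 14.3% lower among all genes (31.3% in either direction), and the median change was 1.7. In 26 members every crush AAV-CNTF nerve was above every sham nerve and in 0 below, against 11.9% and 11.2% of all genes. This comparison uses the sham libraries of the first one and differs from it in the virus, so its counts are not a second, independent result. The authors' deposited table holds 33 members higher and 1 lower at an adjusted p under 0.05 for this pair, and 28 higher and 2 lower for crush AAV-null against sham.

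Mrc1 and Clec2d passed against sham with AAV-CNTF (1.17 ± 0.32 and 0.87 ± 0.30; edgeR, adjusted p = 0.00813 and 0.0293) and not with AAV-null, and Tlr3 did the reverse. The tests of these differences are those between the crush groups, which did not pass for any of the 3 (adjusted p = 0.647, 0.508 and 0.847). The call of Clec2d was lost with only the 10 libraries of that pair (adjusted p = 0.0513) and without any of crush AAV-CNTF replicates 4 and 5 or sham replicates 2, 5 and 6 (0.0672 to 0.1). Clec9a had a change of 3.42 ± 1.30 and an adjusted p of 0.0504, and it passed without crush AAV-CNTF replicate 6 (0.02) and with a replicate block (0.0265), among other settings. Clec4a3 passed with limma-voom and without sham replicate 4 (0.0176 in both), Siglecf with DESeq2 (0.0367) and without sham replicate 2 (0.0355), and Tlr1 with DESeq2 (0.0487).

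The sums of the other myeloid lists are given here, and their part in the members' levels was not tested. Homeostatic microglia markers summed to 1260 to 1720 CPM in crush AAV-CNTF, 1650 to 2210 CPM in crush AAV-null and 734 to 889 CPM in sham nerves, and of 10 after crush with AAV-null 7 rose, led by Fcrls (3.52 ± 0.25), 1 fell (Sall1, -0.45 ± 0.13) and 2 did not pass. The infiltrating monocyte and macrophage list summed to 4770 to 9080, 4830 to 10200 and 872 to 2840 CPM in those groups, and 5 of 11 rose, led by Ms4a7 (3.74 ± 0.39) and Lyz2 (3.39 ± 0.22), with 0 that fell and Chil3 not listed. Most of these sums was 1 gene, Fn1, which averaged 5702, 6056 and 1482 CPM. The 6 that did not pass included Ly6c2 (-1.47 ± 0.71), Plac8 (-0.18 ± 0.79) and S100a4 (0.06 ± 0.18), chosen after their values were seen. Neutrophil markers summed to 65.9 to 103, 64.8 to 87 and 28.1 to 41.1 CPM; 3 of 4 rose, and 9 of 13, among them S100a8, S100a9 and Ly6g, were not listed.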

How the data were processed

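The members and the gene lists were chosen with earlier results of these data known. The submitters' processing notes name Trimmomatic 0.32 for trimming, STAR 2.5.3a for alignment to mm10 and RSEM 1.2.31 for quantification; the gene annotation used, and whether strand was used in counting, are not recorded there. In addition, 2 library kits are named, per the labels' protocols, without saying which library each served. The authors deposited expected counts and FPKM values for 14237 genes, with a log2 fold change and an adjusted p-value for each pair of groups from the authors' comparisons. Between 13.7% and 18.3% of expected counts per library, zeros included, were not whole, and all were rounded. Counts were tested in R 4.3.3 with edgeR 4.0.16 (TMM, filterByExpr, quasi-likelihood, 1 mean per group over 15 libraries, Benjamini-Hochberg over 14194 genes, threshold 0.05). The biological coefficient of variation was 0.37, so the spread between libraries, not counting error, sets the precision for all but the lowest genes. Alternatives were RLE and upper quartile scaling, no filter, a mean of at least 1 CPM, DESeq2 1.42.0, limma-voom (limma 3.58.1), only the 10 libraries compared, a replicate block, and each library left out. Values in every library are given, per role, for the up to 3 called members of largest change (5 for Toll-like receptors and Dectin lectins), members called lower, the 3 of smallest p between the crush groups and the most abundant per length. Clec9a was added to these after its values were seen, as the member of largest difference between the crush groups. Of other lists up to 3 called genes are named. Those named as moving against most of their list were added after their values were seen. So were the uncalled dendritic cell genes named beside Clec9a. The fit was also run on counts simulated from its own estimates of the spread, and that run is not used as support here.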

Additional observations from a re-analysis of the deposited data

Results flagged for a closer look

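Within a group of 5 libraries, 11 of 135 member levels had a library set apart from the other 4 by more than 0.71 of the group's range. For normally distributed values, chance would set apart about 5%. CPM values are skewed, some are 0 and the levels share libraries, so 5% is not the chance rate here. Of the 11, 2 were in crush AAV-null replicate 3: Fcer1g at 255 CPM (the others 156 to 168) and Cd300ld3 at 30.9 CPM (7.4 to 12). A further 2 were in crush AAV-null replicate 5, Clec2l at 4.15 CPM (0 to 0.555) and Clec4a3 at 2.44 CPM (0.812 to 1.25), and crush AAV-null replicate 2 had Clec14a at 21.6 CPM (4.15 to 8.55). In crush AAV-CNTF nerves, Clec4a3 was 6.37 CPM in replicate 2 (2.1 to 3.06 in the others).

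In sham nerves, Cd300lb was 3.42 CPM in replicate 3 (0 to 0.977 in the others), Tlr8 was 4.7 CPM in replicate 4 (0 to 0.882) and Fcgr2b was lowest in replicate 5, at 49.3 CPM (65.8 to 70.9). Clec4d and Clec4n each had reads in a single sham library, 0.283 CPM in replicate 6 and 0.637 CPM in replicate 2.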

How the results depend on the processing

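For 135 member results (45 members in 3 comparisons), 2428 refits gave 2392 on the same side of the threshold, 19 that lost a call, 17 that gained one and 0 called results of opposite sign; among values that passed in neither fit, 49 (in 16 results) changed sign, at -0.85 to 1.52. A further 2 results, Clec4d and Clec9a in crush AAV-null against sham, were below the low-count filter with only the 10 libraries compared and were not fitted. Of 30 calls in crush AAV-null against sham, 25 were kept in every alternative, and of 31 in crush AAV-CNTF against sham, 30; the exceptions stand beside the genes above, and the cause was not tested. Between the crush groups 0 members were called under any alternative. There, genes higher among all tested numbered 6 in the reported fit, 9 with no filter, 14 with a replicate block, 1 with only the 10 libraries compared, 55 with DESeq2 and 3 with limma-voom; genes lower numbered 2, 0 with the 10 libraries and 23 with DESeq2. With single libraries left out these counts ran from 1 to 38 and from 0 to 3. Members lower in crush AAV-CNTF against sham numbered 1, 2 with a replicate block and 2 with limma-voom, and 1 to 2 with a library left out. Members lower in crush AAV-null against sham ran from 2 to 3 and members higher from 26 to 29 with a library left out; with only the 10 libraries compared 25 were higher, against 28 in the reported fit. Members higher in crush AAV-CNTF against sham ran from 29 to 31. Libraries that share a replicate number were not paired: over 15 such pairs their deviations from the group means correlated at -0.05 to 0.11, and 3 were best with their own number. With the replicate block, crush AAV-null against sham gave 28 members higher and 2 lower. Depth limits members below about 1 CPM, such as Clec4d and Clec4n in sham nerves.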

Other observations

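Cell types other than myeloid cells give the setting of the members' levels, and their part in those levels was not tested. Sums of marker levels are given in CPM for crush AAV-CNTF, crush AAV-null and sham nerves in that order, and changes on the log2 scale are for crush AAV-null against sham (edgeR, adjusted p under 0.05). Fibroblast and sheath markers summed to 3950 to 10800, 4120 to 6990 and 1080 to 2410 CPM, and 6 of 8 were higher and 0 lower, among them Fap (5.60 ± 0.90) and Lox (2.22 ± 0.28). Endothelial markers summed to 375 to 649, 423 to 480 and 463 to 521 CPM, and of 10, 1 was higher, Cdh5 (1.07 ± 0.24), and 3 lower, such as Flt1 (-0.79 ± 0.16). Astrocyte markers summed to 5720 to 7050, 5170 to 6890 and 8520 to 9450 CPM, and 8 of 9 were lower and 0 higher, among them S100b (-0.82 ± 0.12) and Ndrg2 (-0.80 ± 0.08). Oligodendrocyte and myelin markers summed to 17500 to 25100, 21300 to 29800 and 50700 to 64300 CPM, and 9 of 9 were lower, among them Mal (-1.56 ± 0.12) and Mobp (-1.55 ± 0.13).

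For NG2 glia the sums were 1030 to 1370, 1220 to 1350 and 1200 to 1450 CPM, and of 7 genes 3 were higher, among them Cspg4 (1.35 ± 0.13) and Vcan (1.00 ± 0.11), and 3 lower: Olig1 (-0.72 ± 0.15), Olig2 (-0.54 ± 0.13) and Sox10 (-0.47 ± 0.12). Retinal ganglion cell and axon markers, of which Pou4f1 was not listed, summed to 96.9 to 141, 89.1 to 128 and 199 to 221 CPM, and of 9 genes 4 were lower, among them Nefh (-5.52 ± 0.55) and Nefl (-5.44 ± 0.85), and 3 higher: Stmn2 (2.40 ± 0.38), Thy1 (0.91 ± 0.20) and Gap43 (0.79 ± 0.23). B and plasma cell markers, 4 of 8 listed, summed to 121 to 486, 191 to 511 and 533 to 728 CPM, and 2 were lower, Igkc (-1.68 ± 0.37) and Jchain (-1.58 ± 0.39), and 0 higher. The 3 of 6 platelet markers listed summed to 15.4 to 22.2, 16 to 28.6 and 6.92 to 12.8 CPM, and 2 were higher, Pf4 (2.40 ± 0.73) and Gp1bb (1.16 ± 0.30), and 0 lower. Pf4 is also a gene of the border macrophage list. Skeletal muscle markers, 5 of 8 listed and 0 of them called, summed to 3.47 to 38.9, 10 to 58.6 and 18.7 to 198 CPM, and Kit, the 1 of 7 mast cell markers listed, was at 31.1 to 37.1, 26.2 to 46.9 and 26.9 to 60.4 CPM.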
